A study of Mus musculus with 6 samples.

Results

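Matrix proteases and their inhibitors are described here in GC-2 spd(ts) cells, a line that was derived from mouse spermatocytes by immortalisation with viral large T and carries p53 whose activity depends on temperature. The genes were taken by symbol: the matrix metalloproteinases (Mmp), the tissue inhibitors of metalloproteinases (Timp1 to Timp4), the ADAMTS proteases and the ADAMTS-like proteins (Adamtsl). The rule took 37 of the 22127 genes in the mRNA table. In GENCODE M21 it matches 51 genes, and the other 14, among them Mmp7, Mmp8, Mmp9 and Adamts8, are not analysed here. Both cultures were held without serum for 12 h and then kept for 48 h in medium with 10% serum, either with 120 µM bisphenol A (BPA), a plastic monomer, or with 0.1% dimethyl sulfoxide as the vehicle control. BPA had been dissolved in dimethyl sulfoxide. Each group was 1 mRNA library, so no difference below has a replicate check, no test between conditions was possible, and each ratio also holds whatever else set the 2 cultures apart.

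Metalloproteinases of the MMP family are zinc enzymes that are made as inactive precursors and cut collagens, proteoglycans and other matrix and surface proteins once their propeptide is removed. TIMPs bind the active site and block it. ADAMTS enzymes are secreted relatives that trim procollagens, cleave proteoglycans such as aggrecan and versican, or act on microfibrils, and ADAMTS-like proteins share their ancillary domains but have no protease domain. In the testis, these enzymes and inhibitors are known for remodelling the seminiferous tubule and its junctions.

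The control and BPA libraries held 32312872 and 33071378 reads over all genes, so a gene without reads may still be present at up to 0.0928 CPM in control and 0.0907 CPM with BPA. The 37 genes took 0.239% of control reads (exact binomial 95% interval 0.237 to 0.240) and 0.205% of BPA reads (0.204 to 0.207). Intervals cover counting error only and treat reads as independent. PCR reads without molecular identifiers are not independent molecules, so the intervals may be too narrow even for that error. Of 16 spermatocyte markers, 4 were listed, all under 10 reads in each library (Sycp3 with 6 and 0, Ddx4 with 0 and 9, Msh4 with 6 and 4, Meioc with 3 and 0), and their summed normalised reads were 15.6 and 12.5. Fibroblast or peritubular markers were abundant, with 9 of 10 listed and summed normalised reads of 193627 in control and 99535 with BPA. All 9 had a log2 ratio below 0, where 48.1% of all genes with at least 10 reads did, and 3 of the 9 were at least 2-fold lower. Neutrophil markers summed to 3.12 and 7.70 (2 of 8 listed), and macrophage or leukocyte markers to 170 and 269 (6 of 8, mostly Cd68, with Ptprc at 3 and 0 reads). Endothelial markers summed to 144 and 101 (5 of 7, mostly Kdr), and epithelial markers to 865 and 838 (3 of 7, mostly Krt14). Of the 3 endothelial genes with at least 10 reads, 2 had a log2 ratio below 0 and 1 above, Pecam1 with 3 and 18 reads. Leydig markers summed to 1871 and 2245 (3 of 7, mostly Nr5a1). Sertoli markers summed to 4258 and 3469 (7 of 9, mostly Gata4 and Inhba). The Sertoli sum was lower with BPA, but 4 of the 7 listed Sertoli genes had a log2 ratio above 0 (median 0.32). The part of these cells or states in the ratios below was not tested. In RNA from whole cultures, fewer cells of a type and less RNA per cell cannot be told apart.

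The culture expressed a few inhibitors and proteases at high level and most of the family at low level. Of the 37 genes, 24 had at least 50 reads in both libraries together, 7 had 10 to 49, and 6 had 3 to 7. The 6 were Timp4 (0 reads in control and 6 with BPA), Mmp25 (5 and 1), Mmp12 (3 and 0), Mmp20 (3 and 0), Adamts15 (7 and 0) and Adamts17 (0 and 5), and no ratio is given for them. Of the 31 genes with at least 10 reads, 2 were at least 2-fold higher in the BPA library and 3 at least 2-fold lower. Over all 16870 genes with at least 10 reads these shares were 6.88% higher and 4.61% lower, so with 31 genes the counts of 2 and 3 are close to the background. Of the 24 genes with at least 50 reads, 2 were higher and 1 was lower, beside 3.25% and 2.05% of all genes with as many reads. The direction was less even. Of the 31, 22 lay below a log2 ratio of 0, where 48.1% of all genes did, and their median log2 ratio was -0.31 against 0.02 for all genes. Over the 24 genes with at least 50 reads the median was -0.16, against 0.0075 for all genes with as many reads. Scaled by library totals, 19 of the 31 lay below 0, beside 6727 of all 16870 genes (8121 with the authors' scaling). The counting interval lay wholly below 0 for 13 of the 31 and wholly above 0 for 5, where the shares over all genes were 26.5% and 28.2%. Abundant genes have narrow intervals, so these shares depend on read depth.

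**Figure D1:**
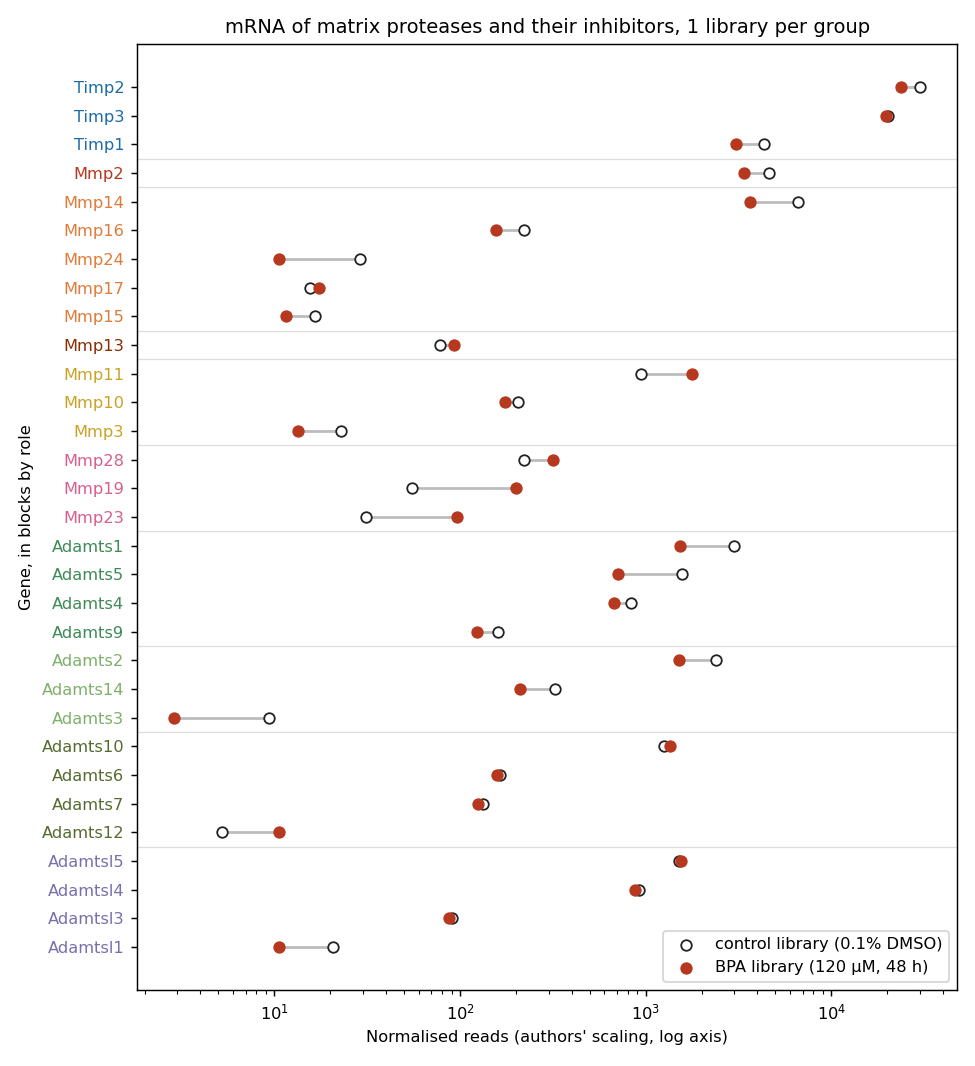
Normalised reads of the 31 genes with at least 10 reads, on a log axis, with an open circle for the control library, a filled circle for the BPA library and blocks by role. Timp2 and Timp3 sit furthest right in both libraries, and Mmp19 and Mmp23 show the widest gaps to the right.

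The inhibitors came first in level. Levels of different genes are compared as normalised reads per kilobase (kb) of exon, which corrects for gene length. Timp2, which blocks many MMPs and also takes part in the activation of pro-MMP2, stood at 7722 normalised reads per kb in control and 6114 with BPA. Timp1, a broad inhibitor of secreted MMPs, stood at 4887 and 3455. Timp3, which is bound to the matrix and also inhibits ADAMTS enzymes, stood at 2486 and 2406. By level per kb the order was Timp2, Timp1, Timp3 in both libraries, and the counting intervals of these levels did not overlap. Those intervals do not cover the choice of exon length, on which the order of Timp1 and Timp3 depends. Without the length correction, Timp3 had 20249.1 normalised reads in control and 19592.5 with BPA, and Timp1 had 4339.6 and 3068.0. By normalised reads per kb Timp2 ranked 199 among all genes in control and 230 with BPA.

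Timp1 had the lowest ratio of the 3 abundant inhibitors. It had 4175 control reads and 3189 BPA reads, giving a log2 ratio of -0.50 (95% counting interval -0.57 to -0.43). Timp2 had 28943 and 24760 reads, a log2 ratio of -0.34 (-0.36 to -0.31). Timp3 had 19481 and 20365 reads and a log2 ratio of -0.05 (-0.08 to -0.02), and scaled by library totals in place of the authors' factors it changed sign, to 0.03. None of the 3 inhibitors with at least 10 reads differed by 2-fold. In the mouse genome Timp1 lies inside the synapsin gene Syn1, Timp3 inside Syn3 and Timp4 inside Syn2, each on the opposite strand. Timp3 shares 1733 exon bases with Syn3, which had 6 and 14 reads, and Timp1 shares none with Syn1, which had 40 and 41.

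Mmp14 and Mmp2 were both lower in the BPA library, each by less than 2-fold. Mmp14, the membrane-anchored MT1-MMP that cuts fibrillar collagen and activates pro-MMP2 together with TIMP2, had 6330 control reads and 3798 BPA reads, giving a log2 ratio of -0.85 (-0.91 to -0.79). Its substrate Mmp2, gelatinase A that degrades denatured collagen and type IV collagen, had 4444 and 3516 reads and a log2 ratio of -0.45 (-0.51 to -0.39). The ratio of Mmp14 was the lowest of this group of Mmp14, Mmp2 and Timp2, and the 3 intervals did not overlap each other.

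Other membrane-type enzymes had fewer reads. Mmp16 (MT3-MMP) had 214 control reads and 163 BPA reads, giving a log2 ratio of -0.50 (-0.81 to -0.20). Mmp24 (MT5-MMP, best known from neurons) had 28 and 11 reads and was counted as 2-fold lower at -1.38, with an interval of -2.61 to -0.41 that includes changes well under 2-fold. It shares 637 exon bases, 13.6% of its exon length, with BC029722 on the opposite strand, which had 1501 and 1190 reads. Mmp15 had 16 and 12 reads and Mmp17 had 15 and 18, and both intervals include 0. With the summed reads of 6608 and 4003, of which Mmp14 made up nearly all, the membrane-type group had a log2 ratio of -0.83 (-0.89 to -0.78).

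Of the 13 MMPs with at least 10 reads, 2 were at least 2-fold higher in the BPA library, Mmp19 and Mmp23, and 1 was lower, Mmp24. Over all genes with at least 10 reads these shares were 6.88% and 4.61%, so with 13 genes the counts are close to the background. Mmp19, an enzyme that cuts basement membrane proteins, lies on chromosome 10 (GRCm38, 128790910 to 128800824) and had 53 reads in control and 209 with BPA. Its log2 ratio of 1.85 (1.43 to 2.33) was the highest of all 31 genes. Mmp23 (chromosome 4, 155650655 to 155653384), an unusual member without the hemopexin domain that is released from the membrane when its propeptide is cut, had 30 and 100 reads and a log2 ratio of 1.59 (1.02 to 2.27). For both genes the whole counting interval lay past 2-fold.

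Mmp11 (stromelysin-3), which is activated inside the cell by furin, had 905 control reads and 1843 BPA reads, giving a log2 ratio of 0.91 (0.80 to 1.03), just short of the 2-fold threshold. Mmp28 (epilysin), a secreted MMP of skin and other epithelia, had 214 and 329 reads and a log2 ratio of 0.51 (0.26 to 0.76). Some of these genes share exon bases with a gene on the opposite strand, and the sources used here do not say whether counting used strand. Mmp11 shares 155 bases (5.58% of its exon length) with Chchd10, which had 385 and 1233 reads. Mmp19 shares 789 bases (22.3%) with Tmem198b, which had 675 and 571 reads. Mmp28 shares 466 bases with 1700020L24Rik, which had 33 and 49 reads, and Mmp23 shares none with any gene. The part of shared reads was not tested. The authors' deposited table gave Mmp19 a p-value of 0.0499 and an adjusted p-value of 0.961, from their comparison of 1 library with 1, and no other gene of the 37 a p-value under 0.05.

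**Figure D2:**
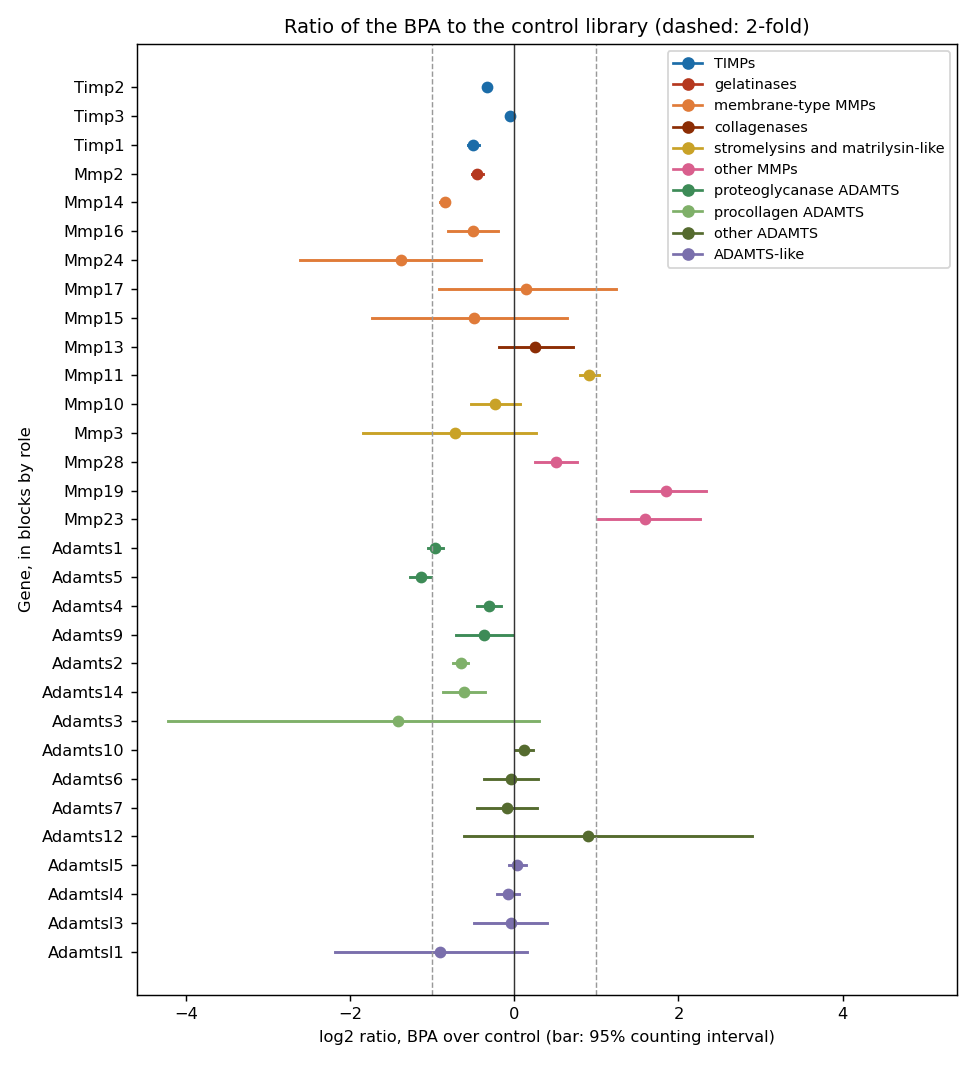
The log2 ratio of the BPA over the control library (point) with its 95% counting interval (bar) for the 31 genes with at least 10 reads, coloured by role, with dashed lines at 2-fold. With the authors' scaling, Mmp19 and Mmp23 lie wholly beyond the upper line and Adamts5 wholly beyond the lower line. Genes with few reads such as Adamts3 have wide bars.

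The ADAMTS enzymes that cleave proteoglycans were lower in the BPA library in all 4 genes with at least 10 reads. Adamts5, the main aggrecan-cleaving enzyme of mouse cartilage, lies on chromosome 16 (85856173 to 85901828) and had 1515 reads in control and 741 with BPA. Its log2 ratio was -1.14 (-1.27 to -1.02), with the authors' scaling wholly past 2-fold, though narrowly. By library totals the ratio was -1.06, a shift larger than the margin between that interval and 2-fold. Adamts1, which cleaves versican and aggrecan and is needed for ovulation, had 2880 and 1598 reads and a log2 ratio of -0.96 (-1.05 to -0.87). These 2 genes are neighbours on the same strand, with 53.1 kb between Adamts1 (85793827 to 85803113) and Adamts5, and share no exon bases with another gene. Adamts4, the other aggrecanase, had 803 and 699 reads and a log2 ratio of -0.31 (-0.46 to -0.16), and Adamts9 had 154 and 129 reads and -0.36 (-0.72 to -0.02). The intervals of Adamts1 and Adamts5 lay below that of Adamts4. The summed reads of the group, 5359 and 3167, gave a log2 ratio of -0.87 (-0.93 to -0.81).

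The procollagen N-propeptidases, which remove the amino-terminal propeptide of fibrillar procollagens before fibrils form, were also lower. Adamts2, the main enzyme of skin, had 2287 control reads and 1572 BPA reads, giving a log2 ratio of -0.65 (-0.75 to -0.56). Adamts14 had 311 and 219 reads and a log2 ratio of -0.62 (-0.87 to -0.36). The ratios of Adamts2 and Adamts14 were alike within their intervals. Adamts3, best known for processing the lymphatic growth factor VEGF-C, had only 9 and 3 reads, and its ratio of -1.41 had an interval of -4.22 to 0.31 that includes equality. Beside them, the procollagen substrates Col1a1 and Col1a2 stood at -1.12 and -1.09, Col5a2 at -0.66, Col5a1 at -0.48 and Col3a1, with 80 and 65 reads, at -0.41 (-0.91 to 0.08).

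Of the 8 measured genes among the remaining ADAMTS and the ADAMTS-like genes, none was called at 2-fold, and the 6 with at least 50 reads had log2 ratios from -0.09 to 0.12. Adamts10, which acts on fibrillin microfibrils, had 1202 control reads and 1411 BPA reads, giving a log2 ratio of 0.12 (0.01 to 0.23). Adamts6 had 157 and 165 reads and -0.04 (-0.36 to 0.28), and Adamts7, known to cleave cartilage oligomeric matrix protein, had 128 and 130 reads and -0.09 (-0.45 to 0.27). Adamts12 had 5 and 11 reads and 0.90, with an interval of -0.62 to 2.90 that includes 0. Of the ADAMTS-like genes, Adamtsl5 had 1463 and 1620 reads and a log2 ratio of 0.04 (-0.07 to 0.14). Adamtsl4, a fibrillin-binding protein needed for the suspension of the lens, had 889 and 909 reads and -0.08 (-0.21 to 0.06). Adamtsl3 had 87 and 91 reads and -0.05 (-0.49 to 0.39), and Adamtsl1 had 20 and 11 reads and -0.91 (-2.18 to 0.16), an interval that also includes 0. The summed ADAMTS-like reads gave a log2 ratio of -0.01 (-0.09 to 0.07), whose interval does not meet those of the proteoglycanase group or of the procollagen group (-0.65, from -0.74 to -0.56). By library totals, Adamtsl3 and Adamts6 changed sign, to 0.03 and 0.04.

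**Figure D3:**
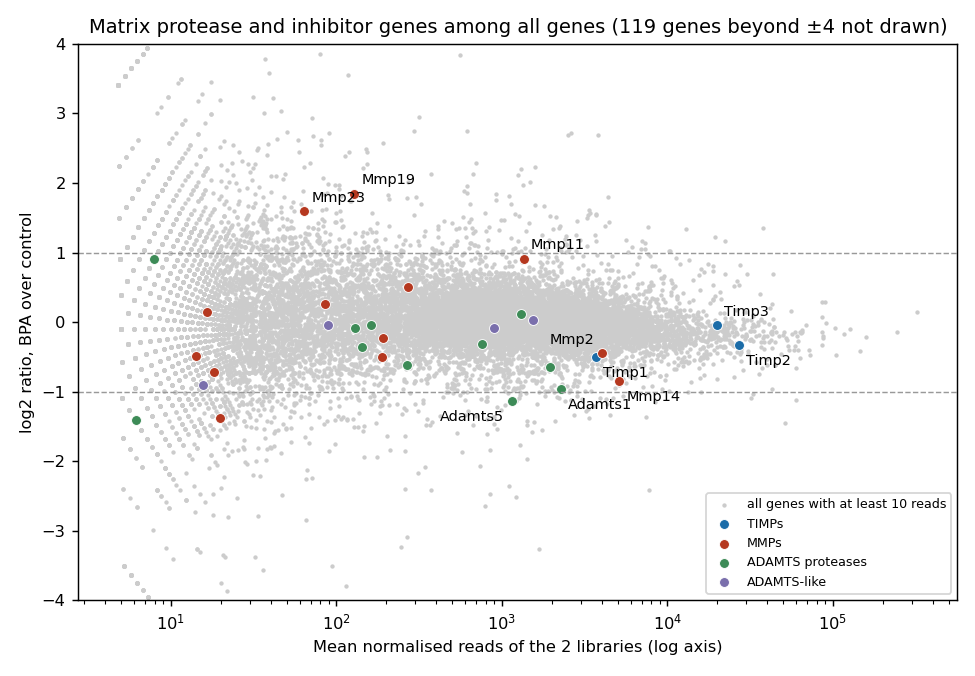
The log2 ratio of BPA over control against the mean normalised reads on a log axis, for all genes with at least 10 reads (grey) and for the matrix protease and inhibitor genes (coloured by family). Mmp11, Mmp14, Adamts1 and Adamts5 lie toward the edge of the grey cloud at their level, near or past the dashed 2-fold lines, and Timp3 lies close to 0.

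The make-up of the family by level, inhibitors against proteases, was close in both libraries. TIMPs made up 74.9% of the summed normalised reads per kb of the 37 genes in control and 74.6% with BPA. The summed TIMP level was 3.35 times the summed level of MMPs and ADAMTS enzymes in control and 3.40 times with BPA. By normalised reads without correction for length the same quotient was 2.39 and 2.85, so how far it differs between the libraries depends on that correction. Among the proteases the order by level per kb differed. In control, Mmp2 (1370 per kb) was followed by Mmp14 (1104), Adamts1 (565) and Mmp11 (339), none of whose counting intervals overlapped. With BPA, Mmp2 (1003) was followed by Mmp11 (638, interval 609.5 to 668) and Mmp14 (613, interval 594 to 633), whose levels overlap, and then by Adamts1 (290). This order also depends on the length correction, which the counting intervals do not cover. Without it, Mmp14 (6580 normalised reads in control and 3654 with BPA) lay above Mmp2 (4619 and 3383) in both libraries. Mmp11, at 1773 with BPA, then lay below both. Per kb, the share of Mmp14 in the summed protease level was 24.5% in control and 17.4% with BPA.

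**Figure D4:**
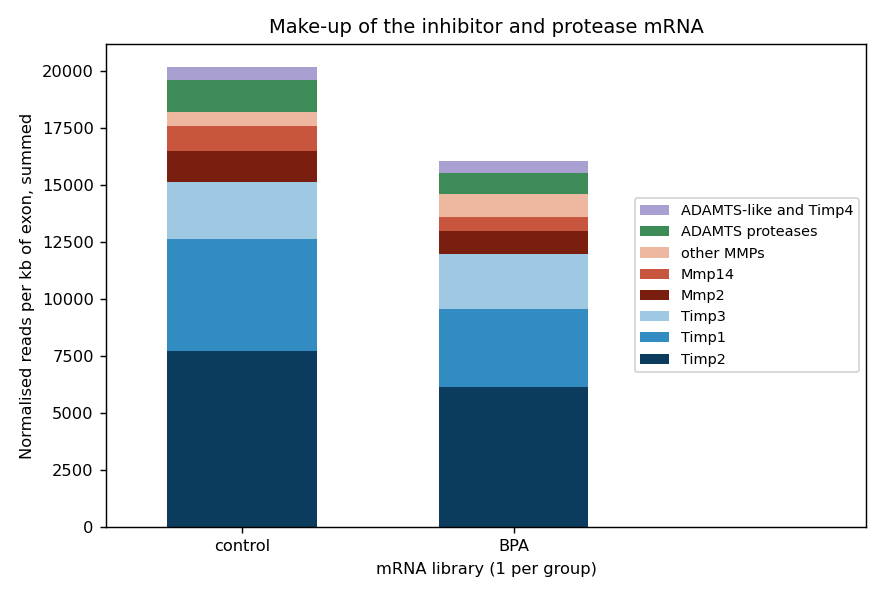
Stacked bars of normalised reads per kb of exon, summed over the 37 genes, for the control and the BPA library. The 3 TIMPs fill most of both bars, and the Mmp14 and ADAMTS segments are thinner in the BPA bar while the segment of other MMPs is thicker.

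A cluster of 10 MMP genes lies on chromosome 9, and it holds the genes best known for strong induction by growth factors and cytokines. Of these 10, 5 were in the table, and they were low in both libraries, with 301 reads in control and 293 with BPA in all. Mmp10 (stromelysin-2) had 198 and 182 reads and a log2 ratio of -0.23 (-0.53 to 0.06). Mmp13, the main interstitial collagenase of mice, had 75 and 97 reads and 0.26 (-0.19 to 0.71). Mmp3 (stromelysin-1) had 22 and 14 reads, and Mmp12 and Mmp20 had 3 and 0 each. The summed ratio was -0.15 (-0.39 to 0.09), and none of the 3 genes with at least 10 reads was called at 2-fold.

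Some promoters of these clustered genes hold letters that were not found in the matched promoters of the other genes. RefSeq promoters (GRCm38.p6) were matched for 26 of the 37 genes, and those of Mmp19, Adamts5, Mmp2, Mmp16, Mmp17, Adamts4, Adamts6, Adamts7, Adamts10, Adamts15 and Adamtsl1 were not matched. None of the unmatched genes lies in the cluster, so the comparison covers only part of the other genes. The 250 bases before each annotated start were searched on both strands for the AP-1 element TGACTCA (reverse complement TGAGTCA), which FOS and JUN dimers can bind, for TATAAA and for the ETS-type element AGGAAG. The AP-1 letters were found in 4 of the 26 genes, Mmp3, Mmp10, Mmp13 and, in 1 of its 2 promoters, Mmp12, all in the chromosome 9 cluster, and in 4.46% of 32851 promoters of all genes. TATAAA was found in 5 genes, Mmp3, Mmp10, Mmp13, Mmp20 and Adamts1, and in 12.4% of all promoters, and AGGAAG in 9 genes and in 29.5%. The cluster promoters held a median of 1 CpG dinucleotide in 250 bases (range 0 to 2, 6 promoters), and those of the other genes a median of 17 (range 2 to 39, 22 promoters), with 6 over all promoters. Shown first are the 100 bases before the start of the 3 cluster genes with at least 10 reads, and then, for contrast, those of the abundant and lower Mmp14 and Adamts1 and of Mmp23, counted as 2-fold higher. Capitals mark the AP-1 and TATAAA letters, and each runs 5′ to 3′ on the strand of the gene.
Mmp3, chr9:7445722-7445821, plus strand: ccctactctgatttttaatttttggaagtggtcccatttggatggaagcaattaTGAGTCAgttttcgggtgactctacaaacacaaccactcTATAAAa
Mmp10, chr9:7502242-7502341, plus strand: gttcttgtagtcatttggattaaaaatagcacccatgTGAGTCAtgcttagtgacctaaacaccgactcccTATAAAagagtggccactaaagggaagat
Mmp13, chr9:7272414-7272513, plus strand: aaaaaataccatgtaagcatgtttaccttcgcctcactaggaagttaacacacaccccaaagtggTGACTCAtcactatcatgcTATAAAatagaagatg
Mmp14, chr14:54431498-54431597, plus strand: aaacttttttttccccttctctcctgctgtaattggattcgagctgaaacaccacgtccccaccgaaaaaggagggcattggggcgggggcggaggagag
Mmp23, chr4:155653385-155653484, minus strand: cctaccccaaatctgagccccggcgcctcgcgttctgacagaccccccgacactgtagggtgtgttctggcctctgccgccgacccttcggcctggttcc
Adamts1, chr16:85803114-85803213, minus strand: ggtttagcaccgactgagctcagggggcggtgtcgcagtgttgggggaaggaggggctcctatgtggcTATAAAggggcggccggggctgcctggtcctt
The AP-1 letters begin 46 bases before the start in Mmp3, 63 in Mmp10 and 35 in Mmp13, each followed by TATAAA, at 7, 29 and 16 bases before it. Adamts1 holds TATAAA at 32 bases without the AP-1 letters, and Mmp14 and Mmp23 hold neither in the stretch shown. The 100 bases before the other matched start of Mmp23 (chr4:155653291-155653390, not shown) also hold neither. A match is a description of letters and not a site of binding. In the same libraries the 7 FOS and JUN genes, which encode the subunits of AP-1, had a median log2 ratio of -0.39. Of these 7, 6 were below 0, where 48.1% of all genes were, none was at 2-fold, and Jund was at 0.44.

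Other genes of matrix turnover were described from lists by function, set beside the same background of 6.88% higher and 4.61% lower. In the plasminogen activation list, 9 genes described here had at least 10 reads, with 1 higher, 1 lower and a median of 0.0036. Plau, the urokinase that starts the pericellular cascade, had 358 and 161 reads and a log2 ratio of -1.26. Serpinb2, an inhibitor of urokinase, had 45 and 115 reads and 1.22. Of 9 measured genes of MMP activation and control, 2 were lower, the adhesion protein Thbs1 at -1.45 and the hyaluronan-binding Tnfaip6 at -1.37, and the median was -0.11. The membrane inhibitor Reck had 161 and 173 reads and a ratio of -0.01, and the activating convertase Furin 0.20.

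Among the related ADAM proteases, 9 genes were measured with a median of -0.31, 2 of them lower. Adam12, a secreted and membrane metalloprotease of growing and fibrotic tissue, had 1907 control reads and 602 BPA reads, giving a log2 ratio of -1.77. Of 9 other matrix proteases 1 was higher, Prss35 with 15 and 35 reads, and the median was 0.07. The 4 procollagen enhancers and inhibitors had a median of -0.54, with 1 lower, Wfikkn2 with 18 and 7 reads at -1.35, and with the abundant collagen chaperone Serpinh1 at -0.24. Of 19 measured substrates, 17 were below 0, where 48.1% of all genes were. At 2-fold, 3 were lower and 1 higher, and the median was -0.41. Vcan, the versican cut by ADAMTS1 and ADAMTS5, had 788 and 389 reads and a ratio of -1.13, close to the ratios of these 2 enzymes. The 1 higher substrate, Col2a1, had 0 and 20 reads, at least 6.17-fold higher with 3 counts in the control library in place of 0. Of 18 transcription factors known for protease genes, 1 was higher, Etv5 at 1.05, 1 was lower, Lef1 with 18 and 5 reads, and the median was -0.24.

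**Figure D5:**
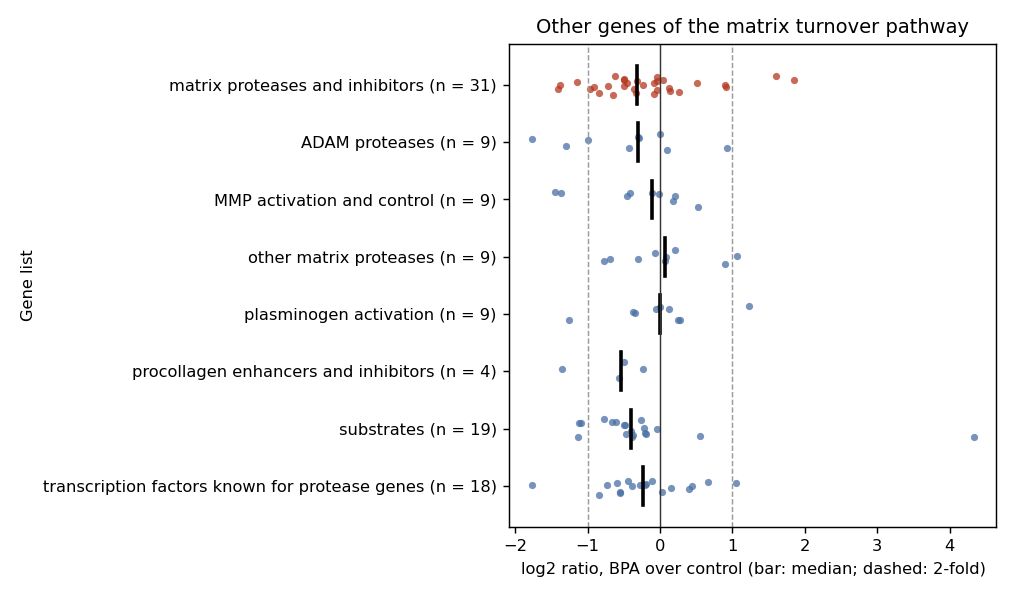
The log2 ratio of BPA over control for each gene with at least 10 reads in the matrix protease and inhibitor family (red) and in 7 lists of related genes (blue), with a black bar at each median and dashed lines at 2-fold. Medians run from -0.54 for procollagen enhancers and inhibitors to 0.07 for other matrix proteases, and the isolated point at the right is Col2a1.

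Circular RNA, formed when a downstream splice site joins an upstream one, was read in separate libraries of the same RNA. Of 9158 listed circRNAs, 14 came from 8 of the 37 genes, with 10 of 12909 back-splice events in control, or 0.0775% (exact binomial 95% interval 0.0372 to 0.142), and 11 of 17586 with BPA, or 0.0625% (0.0312 to 0.112). These intervals overlap, and no difference was detectable at this depth. Adamts6 on chromosome 13, with 157 and 165 mRNA reads, gave 6 of the 14, with 5 events in control and 6 with BPA. Its leading circRNA, from 104307221 to 104314383, had 3 and 1 events. Timp2, which had the most mRNA reads of the family, gave a single circRNA with 1 event in each library. The others came from Mmp16 (2 circRNAs), Mmp10, Mmp14, Adamts10, Adamts12 and Adamtsl4, each with 1 or 2 events in all. In 12 of the 14, both ends lay at annotated exon edges of the host gene within 1 base, and none of the 14 had a circBase entry in the table.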

How the data were processed

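mRNA and circRNA libraries of 1 control and 1 BPA culture were used; the miRNA libraries hold none of these genes and were not used. The submitters' processing notes name STAR (both kinds of library), StringTie (mRNA), and the builds GRCm38 and mm10, without versions of the tools. The sources used here do not give the counter, circRNA caller or annotation release. The deposited mRNA values are log2 of a normalised read number plus 1. Taken back to the linear scale, 100% of them were multiples of a fixed step, 1.03943 in control and 0.962066 with BPA (tolerance 0.001), and dividing by it recovered whole reads. The authors' scaling was kept. The deposited circRNA log2 values gave even whole numbers, and each 2 was read as a single back-splice event; the sources used here do not say why the numbers are even. The authors also deposited p-values and adjusted p-values, quoted as theirs only.

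Ratios are BPA over control of normalised reads plus a pseudocount of 1, for genes with at least 10 reads in both libraries together, counted at 2-fold. Intervals are exact conditional binomial (Clopper-Pearson) 95% intervals of the reads. Level intervals are exact Poisson. With 1 library per group no p-value was computed. Exon lengths, positions and overlaps came from GENCODE M21 (GRCm38), which matched 22036 genes. They are unions over all annotated transcripts, so a level per kb understates a gene that uses a short transcript. The ratio calculation was tested on simulated data. Python 3.11.15, NumPy 2.4.6, pandas 2.3.3, SciPy 1.17.1 and matplotlib 3.10.9 were used. Genes with at least 10 reads could be named; of each related list, those at 2-fold with at least 50 reads were named, or else the gene with the most reads. Jund, Reck, Furin, Lef1, Wfikkn2, Col3a1, Col5a1, Col5a2 and Col2a1 were named in addition, and the promoters shown were chosen, after their values were seen. A gene of the plasminogen activation list is not reported here. The members and lists were chosen with earlier results of these data known. Alternatives were 2 other scalings, 2 pseudocounts, 2 filters and a minimum on circRNA events.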

Additional observations from a re-analysis of the deposited data

How the results depend on the processing

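The counts of 2 higher and 3 lower genes held with trimmed-mean (TMM) scaling, library totals and a pseudocount of 0.5, and with a pseudocount of 5 the count of lower genes was 2, since Adamts3 moved from -1.41 to -0.86. With a filter of 50 reads, 1 of 24 genes was lower (Adamts5), the median was -0.16 in place of -0.31, and 440 and 277 of all genes were higher and lower. With no filter, 4 and 7 of the 37 genes were, and 2978 and 2381 of all genes, where genes at 0 in a library enter. The median of the family ranged from -0.34 to -0.16 over all settings. With the authors' scaling 22 genes lay below 0, against 19 with library totals, which move the median of all genes by 0.08. Of all 16870 genes, 8121 and 6727 lay below 0 under these 2 scalings. No 2-fold gene changed sign under the other scalings and pseudocounts. With circRNAs of at least 3 events only, the share was 0.0316% in control and 0.00809% with BPA, from 1 circRNA. No paired analysis was possible because each group is 1 library. Depth limits the 7 genes with 10 to 49 reads, whose intervals all include equality except that of Mmp24.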
